A study of Homo sapiens with 6 samples.

Results

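The genes described are those encoded by the mitochondrial genome of PC3, an established line of human prostate cancer that came from a bone metastasis. They were taken as every row of the deposited TPM table placed on the mitochondrial chromosome, which gave 35 of 27958 genes: 13 mRNAs, 2 rRNAs and 20 tRNAs. All 35 positions match GENCODE release 29 on GRCh38, which lists 37 mitochondrial genes, so 2 tRNA genes were not analysed here. TPM is a share of transcripts: reads divided by gene length and scaled to the same total in each library. Per the labels' protocols, NRP2-high and NRP2-low cells were separated from PC3 cells by flow cytometry after staining for NRP2 (neuropilin-2, a membrane receptor that binds semaphorins and some VEGF ligands) and grown for no longer than 2 weeks, with RNA from different passages. NRP2-high has 3 libraries (S38, S39 and S40) and NRP2-low has 3 libraries (S35, S36 and S37); both groups come from the same parental line, and no other treatment is given in the labels.

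Mitochondrial DNA is a small circle that is copied into long transcripts from each strand and cut into single RNAs, mostly by removing the tRNAs that lie between the other genes. Its mRNAs encode core subunits of respiratory complexes I, III, IV and V, its rRNAs form the mitochondrial ribosome, and its tRNAs serve translation inside the organelle, while all other mitochondrial proteins come from nuclear genes. One strand, written plus here, carries all but 1 of the mRNA genes together with both rRNA genes; MT-ND6 lies on the minus strand. In RNA from whole cultures, more mitochondria per cell and more transcript per mitochondrion cannot be told apart.

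The libraries held between 17551302 reads (S37) and 30726744 reads (S35), recovered from the TPM values. NRP2, the gene used for sorting, was at 48.1, 42.5 and 16.6 TPM in S38, S39 and S40 (NRP2-high), against 7.55, 5.10 and 2.71 TPM in S35, S36 and S37 (NRP2-low). KRT8, KRT18 and VIM, the keratin and vimentin genes that mark PC3 cells, were present in every library (KRT8 at 62.9 TPM or more). PTPRC, PECAM1 and COL1A1, markers of leukocytes, endothelium and fibroblasts, reached at most 0.482 TPM. The KLK3 and COL1A2 rows were not analysed here. The labels do not say which library came from which passage, or whether the libraries of a group had their own sort; p-values therefore cover only the spread between these libraries.

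Library S37 was set apart because of its mitochondrial share. Mitochondrial genes took 11.1%, 16.1% and 18.7% of TPM in S38, S39 and S40 (NRP2-high), against 14.3%, 15.1% and 31.0% in S35, S36 and S37 (NRP2-low). The means were 15.3% ± 3.84 in NRP2-high and 20.1% ± 9.41 in NRP2-low (SD, n = 3 each). The groups overlapped, and without S37 the order of the means turned: 15.3% in NRP2-high against 14.7% in the remaining NRP2-low libraries. Counted as reads, without the division by gene length, mitochondrial genes took 2.76%, 4.13% and 5.03% in the NRP2-high group, against 3.69%, 3.88% and 9.97% in the NRP2-low group, in the same order of libraries, which is 1750040 reads in S37. S37 also had the fewest reads, the lowest NRP2 and the lowest vimentin (442 TPM, against 768 to 1358 TPM in NRP2-high and 944 to 1014 TPM in the other NRP2-low libraries). MALAT1, a long RNA kept in the nucleus, was at 313 to 435 TPM in NRP2-high libraries, at 232 and 247 TPM in S35 and S36, and at 196 TPM in S37. NEAT1, another nuclear RNA, was at 15.0 to 41.5 TPM in NRP2-high libraries, at 14.5 and 17.5 TPM in S35 and S36, and at 19.9 TPM in S37. TPM has a fixed total, so the larger mitochondrial share of S37 by itself lowers the TPM of its nuclear genes. The values of NRP2, vimentin, MALAT1 and NEAT1 given here are not corrected for this. The part of depth and of these genes in the mitochondrial share was not tested.

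**Figure D1:**
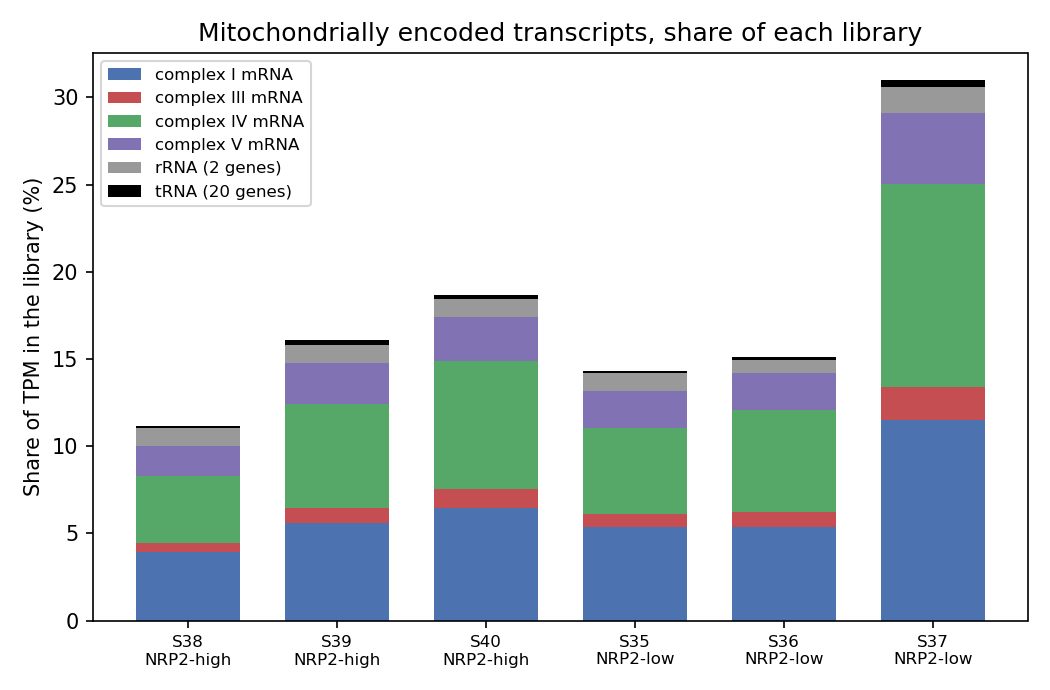
Stacked bars give the share of TPM (%) taken by mitochondrially encoded genes in each library, split into mRNAs by respiratory complex, rRNA and tRNA. NRP2-high libraries reach 11.1%, 16.1% and 18.7% and NRP2-low libraries 14.3%, 15.1% and 31.0%, the last being S37.

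A few sequences bear on how the values are read, and all are from the GENCODE release 29 transcripts. The reading frames of MT-ATP8 and MT-ATP6 share bases, and so do those of MT-ND4L and MT-ND4, so a read from the shared bases lies in both genes of a pair. MT-ATP8 (GRCh38, mitochondrial chromosome, 8366 to 8572, plus strand) has 46 of its 207 bases, 22.2%, in common with MT-ATP6; these are in capitals and begin with the start codon of MT-ATP6. The last 30 bases of MT-ND4L (10737 to 10766, plus strand) are shown in the same way, with the 7 bases in common with MT-ND4 in capitals.
MT-ATP8: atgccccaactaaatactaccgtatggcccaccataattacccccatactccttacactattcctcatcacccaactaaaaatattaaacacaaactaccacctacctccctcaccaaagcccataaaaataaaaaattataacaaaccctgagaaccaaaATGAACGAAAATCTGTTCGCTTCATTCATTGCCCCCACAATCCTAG
MT-ND4L: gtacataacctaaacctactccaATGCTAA

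Parts of the mitochondrial genome also have copies in nuclear chromosomes, which the table lists as pseudogenes. The most abundant copy, MTATP6P1 (chromosome 1, 633696 to 634376, plus strand), differs from MT-ATP6 at 10 of 681 bases. Bases 121 to 200 of both, counted from the first base of the gene, hold 4 of these differences, given in capitals. The substitutions from MT-ATP6 to MTATP6P1 in this stretch are C129T, A151C, A175G and A192G. The longest stretch without a difference is 141 bases, and reads that fall in it match both places.
MT-ATP6: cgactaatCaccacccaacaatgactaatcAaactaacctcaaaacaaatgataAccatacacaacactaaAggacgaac
MTATP6P1: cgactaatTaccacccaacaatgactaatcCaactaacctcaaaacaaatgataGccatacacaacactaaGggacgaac

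The 6 tRNA genes below carried most of the tRNA reads, and their sequences are shown with the anticodon in capitals, on the strand of the gene. MT-TP (15956 to 16023), MT-TQ (4329 to 4400), MT-TE (14674 to 14742) and MT-TS1 (7446 to 7514) lie on the minus strand, and MT-TL1 (3230 to 3304) and MT-TT (15888 to 15953) on the plus strand.
MT-TP: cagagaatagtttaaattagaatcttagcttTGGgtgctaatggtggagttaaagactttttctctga
MT-TQ: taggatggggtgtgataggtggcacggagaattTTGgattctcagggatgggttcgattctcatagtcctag
MT-TE: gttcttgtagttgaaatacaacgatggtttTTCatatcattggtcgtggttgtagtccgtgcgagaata
MT-TS1: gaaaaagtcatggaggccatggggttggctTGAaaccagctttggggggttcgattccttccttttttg
MT-TL1: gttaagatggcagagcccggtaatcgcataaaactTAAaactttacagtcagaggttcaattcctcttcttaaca
MT-TT: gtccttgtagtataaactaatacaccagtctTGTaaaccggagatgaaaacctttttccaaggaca

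The mitochondrial mRNAs were among the most abundant transcripts of these cells. Of the 10 genes with the highest TPM, 7, 9 and 9 were mitochondrial in S38, S39 and S40 (NRP2-high), against 9, 9 and 10 in S35, S36 and S37 (NRP2-low). The mRNA with the lowest TPM still ranked 29, 25 and 21 among all genes in the NRP2-high libraries and 28, 26 and 17 in the NRP2-low libraries. By mean TPM over the 6 libraries, a scale per gene length, the order was MT-CO1 (31455 TPM), MT-ATP6 (20225), MT-ND4 (19214), MT-CO3 (17604), MT-CO2 (16890), MT-ND4L (12209), MT-CYB (9909), MT-ND1 (8731), MT-ND5 (8313), MT-ND2 (7126), MT-ATP8 (4542), MT-ND6 (4347) and MT-ND3 (3755). MT-CO1 was the first and MT-ND4L the sixth of the mRNAs in every library. Most other neighbours exchanged places: MT-CYB lay above MT-ND1 in 4 of 6 libraries, MT-ND6 above MT-ND3 in 4 of 6, and MT-ATP6 above MT-ND4 in 5 of 6.

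No mitochondrial gene passed the test between the groups. Of the 35 members, 34 passed the filter of at least 1 TPM in at least 3 libraries, and in limma on log2(TPM + 1) with all 15214 tested genes none had an adjusted p under 0.05, against 0.835% of all tested genes. At an unadjusted p under 0.05 there was 1 of 34 members, the tRNA gene MT-TC, against 7.0% of all tested genes, and limma voom on the recovered reads called 0 of 34, against 1.31% of all tested genes. All 13 mRNAs lay below 0, with a median log2 fold change (NRP2-high minus NRP2-low) of -0.41, while the median of all tested genes was 0.10. With libraries scaled by their median ratio the median of all tested genes was 0.0029 and that of the mRNAs -0.51, again with all 13 below 0. Adjusted p-values of the mRNAs ran from 0.874 to 0.989. Without S37 the median of the mRNAs was -0.01, with 5 above 0 and 8 below 0; without S38 it was -0.15, with 2 above 0. The median of all tested genes was -0.0039 without S37 and 0.096 without S38. Without S37, 0 of the 34 members passed, against 0.578% of all tested genes. All 13 mRNAs were highest in S37, whereas 8.56% of all tested genes were highest there. The mRNAs make up most of the share by which S37 was set apart, so this count is not separate evidence about S37. The fixed total of TPM also lowers the nuclear genes in that library. For the mRNAs S37 was 1.91 to 2.34 times the mean of S35 and S36, and 1.41 to 2.05 times the highest of the other libraries. The plot of differences shows both fits with their intervals.

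**Figure D2:**
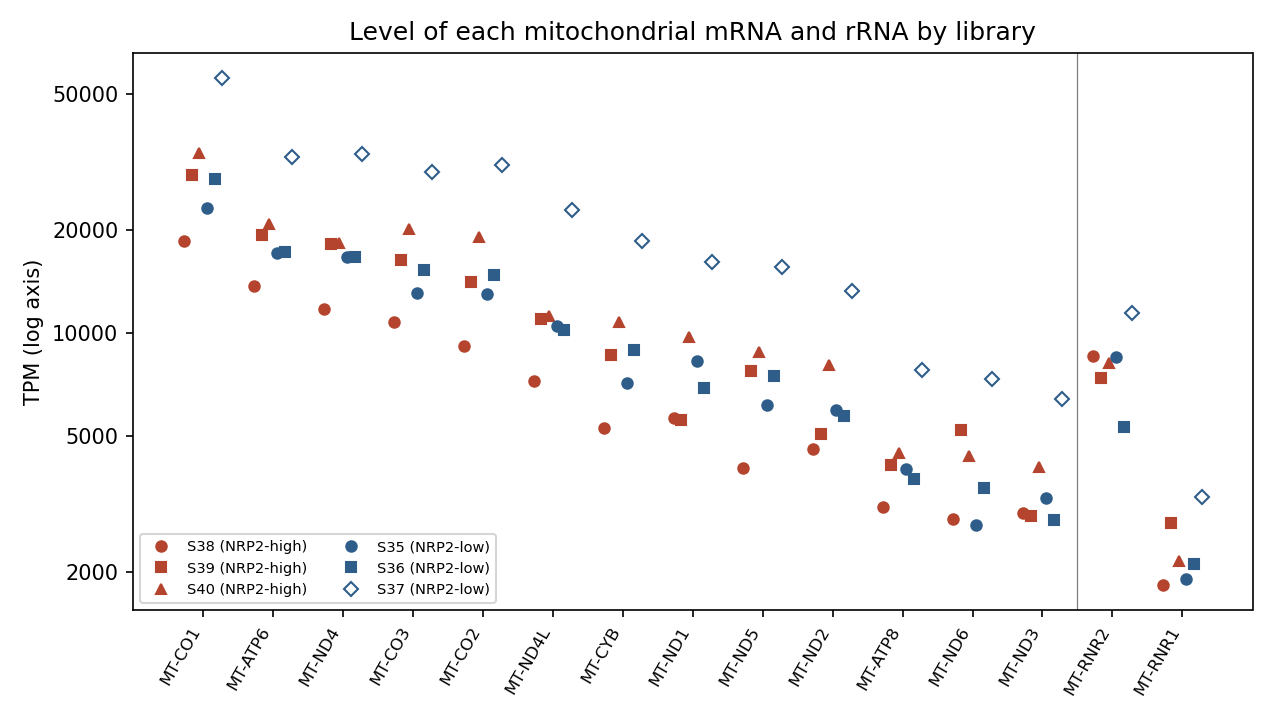
Points give the TPM (log axis) of the 13 mitochondrial mRNAs, ordered by mean level, and of the 2 rRNAs in each library, NRP2-high in red and NRP2-low in blue. The open diamonds of S37 lie above all other points for every gene, and the remaining libraries of the groups overlap.

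The cytochrome c oxidase genes included the most abundant mitochondrial mRNA, and none of them passed the test. MT-CO1, MT-CO2 and MT-CO3 encode the catalytic core of complex IV, which passes electrons to oxygen. MT-CO1 (plus strand, 5904 to 7445) was at 18626, 29139 and 33647 TPM in S38, S39 and S40 (NRP2-high), against 23252, 28316 and 55748 TPM in S35, S36 and S37 (NRP2-low), with a log2 fold change of -0.34 (SE 0.37, 95% interval -1.18 to 0.51, limma adjusted p = 0.897). The lowest value was in an NRP2-high library and the highest in S37, and the rest were mixed; without S37 the log2 fold change was 0.04 (SE 0.27). MT-CO2 (7586 to 8269) was at 9205, 14121 and 19104 TPM in the NRP2-high group, against 13053, 14857 and 30998 TPM in the NRP2-low group (log2 fold change -0.43, SE 0.38). MT-CO3 (9207 to 9990) was at 10754, 16422 and 20225 TPM in the NRP2-high group, against 13157, 15343 and 29724 TPM in the NRP2-low group (log2 fold change -0.25, SE 0.36). In both genes S38 was lowest and S37 highest, S40 was the highest of the other libraries, and the groups overlapped. Without S37 the log2 fold change of MT-CO2 was -0.04 and that of MT-CO3 0.11. Summed, complex IV mRNAs took 5.71% ± 1.73 of TPM in the NRP2-high group, against 7.48% ± 3.64 in the NRP2-low group (SD, n = 3 each), and without S37 the NRP2-low mean was 5.40%.

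Complex I, the NADH dehydrogenase that feeds electrons into the chain, has 7 mitochondrially encoded subunits, and their genes summed to 5.33% ± 1.30 of TPM in the NRP2-high group, against 7.41% ± 3.56 in the NRP2-low group (SD, n = 3 each); without S37 the NRP2-low mean was 5.36%. MT-ND1 (plus strand, 3307 to 4262) was at 5638, 5583 and 9776 TPM in S38, S39 and S40 (NRP2-high), against 8282, 6919 and 16185 TPM in S35, S36 and S37 (NRP2-low). It had the largest difference of the mRNAs, a log2 fold change of -0.53 (SE 0.36, 95% interval -1.34 to 0.28, limma adjusted p = 0.874), and -0.17 without S37. MT-ND2 (4470 to 5511) was at 4577, 5069 and 8100 TPM in the NRP2-high group, against 5965, 5716 and 13327 TPM in the NRP2-low group (log2 fold change -0.42, SE 0.36). For these neighbouring genes S38 and S39 were the lowest libraries, and S40 lay above S35 and S36. Without S37 the log2 fold change of MT-ND2 was -0.03.

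MT-ND4 (10760 to 12137), a proton-pumping subunit, was at 11789, 18310 and 18420 TPM in the NRP2-high group, against 16715, 16682 and 33367 TPM in the NRP2-low group (log2 fold change -0.41, SE 0.33). MT-ND4L (10470 to 10766), read from the same mRNA, was at 7269, 11029 and 11227 TPM in the NRP2-high group, against 10510, 10254 and 22965 TPM in the NRP2-low group (-0.49, SE 0.35). The ratio of MT-ND4L to MT-ND4 was 0.617, 0.602 and 0.609 in the NRP2-high group, against 0.629, 0.615 and 0.688 in the NRP2-low group, so the pair moved together and S37 had the highest ratio. MT-ND5 (12337 to 14148), the largest of the mRNA genes at 1812 bases, was at 4020, 7737 and 8812 TPM in the NRP2-high group, against 6184, 7474 and 15652 TPM in the NRP2-low group (-0.47, SE 0.41). MT-ND3 (10059 to 10404), a small subunit, was at 2985, 2917 and 4073 TPM in the NRP2-high group, against 3290, 2835 and 6432 TPM in the NRP2-low group (-0.25, SE 0.31). Apart from S37, the highest value of MT-ND3 was in S40 and the lowest in S36, and the groups overlapped for all of these genes. Without S37 the log2 fold changes were -0.08 for MT-ND4, -0.10 for MT-ND4L, -0.07 for MT-ND5 and 0.11 for MT-ND3.

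MT-ND6 (14149 to 14673, minus strand) is the only mRNA gene of its strand, and its difference was the smallest of the mRNAs with all 6 libraries and the largest without S37. It was at 2867, 5206 and 4369 TPM in S38, S39 and S40 (NRP2-high), against 2755, 3536 and 7348 TPM in S35, S36 and S37 (NRP2-low) (log2 fold change -0.04, SE 0.37, 95% interval -0.90 to 0.81, limma adjusted p = 0.989). Its second highest value was in S39, whereas the 12 plus-strand mRNAs were highest in S37 and then in S40. Without S37 the log2 fold change was 0.37 (SE 0.27), and the 95% interval of -0.27 to 1.004 includes 0. As a share of the summed mRNA, MT-ND6 held 2.87%, 3.52% and 2.51% in the NRP2-high group, against 2.10%, 2.49% and 2.52% in the NRP2-low group. The groups overlapped by a small margin, with S40 just under S37, and the means were 2.97% ± 0.512 and 2.37% ± 0.238 (SD, n = 3 each) in NRP2-high and NRP2-low.

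MT-CYB (14747 to 15887, plus strand) encodes cytochrome b, the mitochondrially encoded subunit of complex III. It was at 5287, 8664 and 10799 TPM in S38, S39 and S40 (NRP2-high), against 7132, 8910 and 18664 TPM in S35, S36 and S37 (NRP2-low) (log2 fold change -0.42, SE 0.39, 95% interval -1.32 to 0.48). S38 and S35 were the lowest of their groups, and without S37 the log2 fold change was -0.01.

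Complex V is the ATP synthase, with MT-ATP6 and MT-ATP8 encoding parts of its membrane portion. MT-ATP6 (plus strand, 8527 to 9207) was at 13714, 19458 and 20870 TPM in the NRP2-high group, against 17122, 17294 and 32894 TPM in the NRP2-low group, in the order used above (log2 fold change -0.27, SE 0.31). MT-ATP8 was at 3100, 4118 and 4465 TPM in the NRP2-high group, against 3996, 3741 and 7830 TPM in the NRP2-low group (-0.35, SE 0.30). In both genes S39 and S40 lay above S35 and S36, and S38 lay below them. MT-ATP8 was 0.226, 0.212 and 0.214 times MT-ATP6 in the NRP2-high group, against 0.233, 0.216 and 0.238 times in the NRP2-low group, although they are made as 1 mRNA; how the reads in their 46 common bases were assigned is not given in the sources used here.

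**Figure D3:**
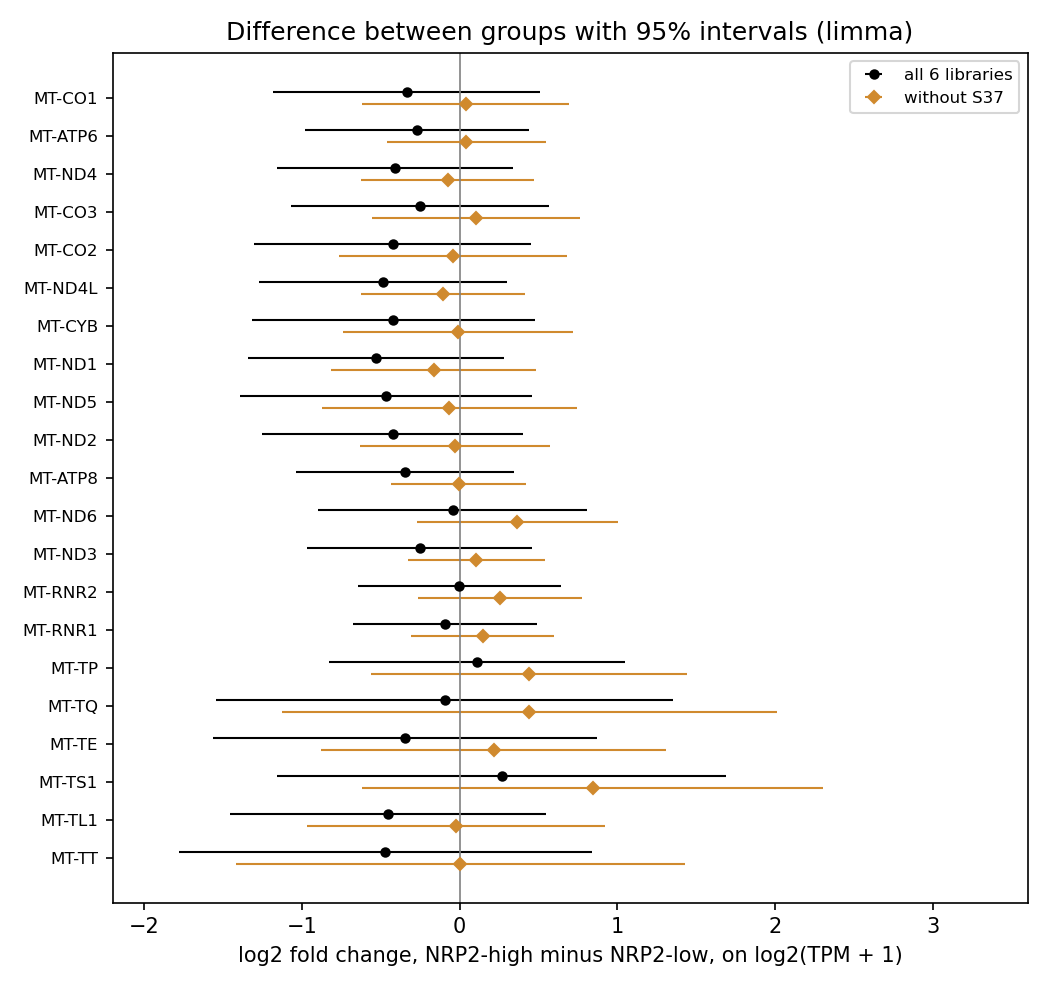
Points give the log2 fold change, NRP2-high minus NRP2-low, of the mRNAs, the rRNAs and the 6 most abundant tRNAs from limma on log2(TPM + 1), with all 6 libraries (black) and without S37 (orange), and bars give 95% intervals. Every interval includes 0, and the mRNA points move from a median of -0.41 to -0.01 when S37 is left out.

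Within the mitochondrial mRNA the balance between complexes was close in all libraries. Complex I genes held 39.2%, 37.8% and 37.3% of the summed mRNA TPM in S38, S39 and S40 (NRP2-high), against 40.9%, 37.7% and 39.6% in S35, S36 and S37 (NRP2-low). Complex IV genes held 38.7%, 40.4% and 42.0% in the NRP2-high group, against 37.6%, 41.2% and 40.01% in the NRP2-low group. Complex V genes held 13.99% to 16.8% and MT-CYB 5.30% to 6.41% over all libraries. S37, with 29.1% of its TPM in mitochondrial mRNA against 9.98% to 17.4% in NRP2-high and 13.1% and 14.2% in the other NRP2-low libraries, lay inside the range of the other libraries for complexes I and IV. It had the lowest complex V share and the highest complex III share of the 6 libraries.

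Some ratios between members differed more between libraries of a group than between the groups. MT-RNR2 over MT-RNR1 was 4.67, 2.66 and 3.81 in S38, S39 and S40 (NRP2-high), against 4.48, 2.51 and 3.47 in S35, S36 and S37 (NRP2-low). MT-ND1 over MT-CO1 was 0.303, 0.192 and 0.291 in the NRP2-high group, against 0.356, 0.244 and 0.290 in the NRP2-low group. Both ratios were lowest in S39 and S36 within their groups, and highest in S38 and S35. The labels tie no library of one group to a library of the other, so these likenesses were not used as pairs. S37 was the middle library of its group in both ratios, unlike in the total share.

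**Figure D4:**
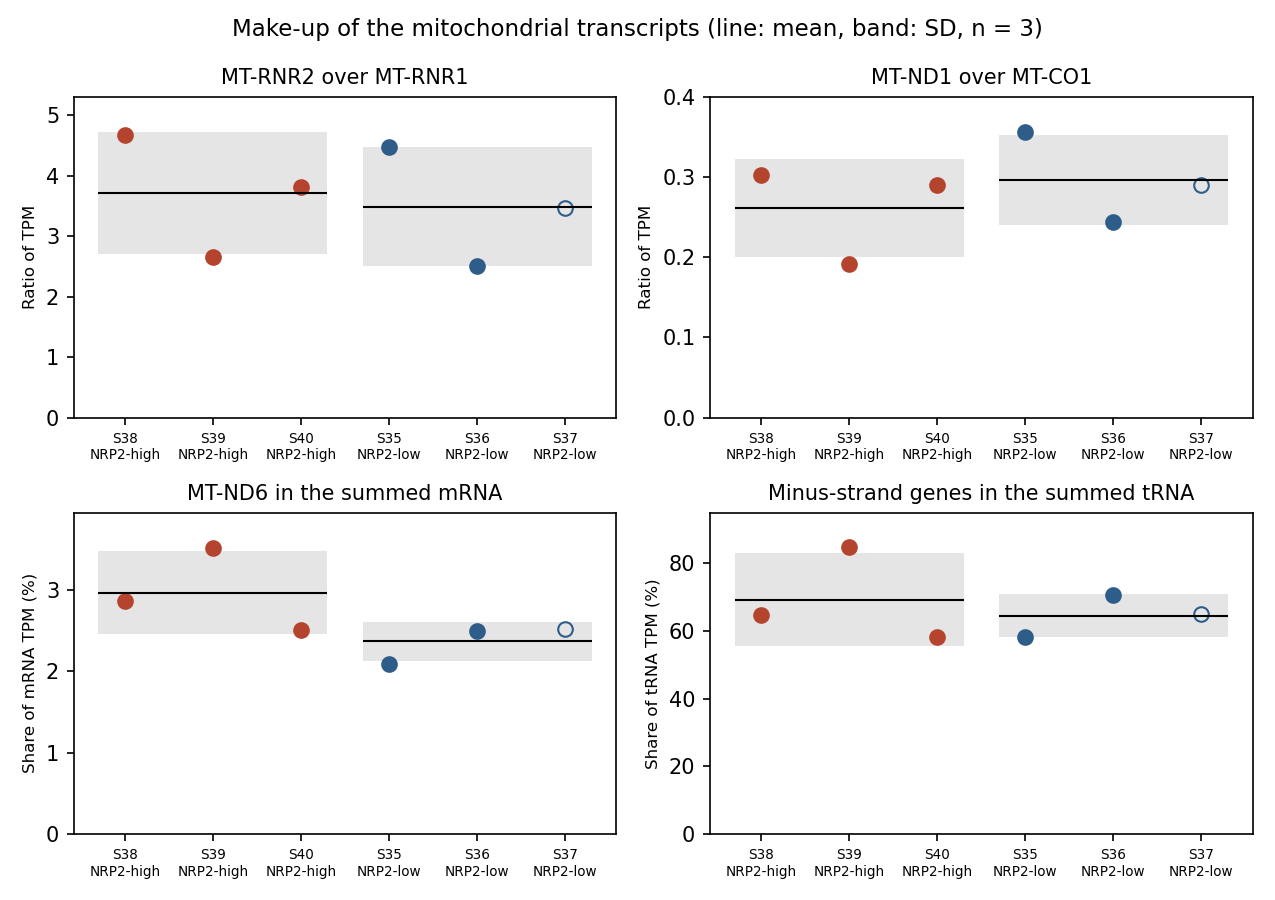
Each panel shows 1 measure of the make-up of the mitochondrial transcripts by library, with the mean (line) and SD (band) of each group of 3; S37 is the open circle. The MT-RNR2 to MT-RNR1 ratio runs from 2.66 to 4.67 in NRP2-high and from 2.51 to 4.48 in NRP2-low libraries, and the groups overlap in all panels.

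The rRNAs did not follow the mRNAs closely. MT-RNR2, the large rRNA gene (1671 to 3229, plus strand), stood at 8574, 7404 and 8184 TPM in S38, S39 and S40 (NRP2-high), against 8547, 5308 and 11499 TPM in S35, S36 and S37 (NRP2-low). Its NRP2-high values were close together, with a mean of 8054 ± 596 TPM against 8451 ± 3097 TPM in NRP2-low (SD, n = 3 each), giving a log2 fold change of -0.00 (SE 0.28, 95% interval -0.65 to 0.64). MT-RNR1, the small rRNA gene (648 to 1601), was at 1837, 2785 and 2150 TPM in the NRP2-high group, against 1908, 2116 and 3314 TPM in the NRP2-low group (log2 fold change -0.09, SE 0.26). S37 was 1.65 and 1.66 times the mean of S35 and S36 for MT-RNR1 and MT-RNR2, less than for any mRNA. The rRNAs took 9.36%, 6.34% and 5.53% of the mitochondrial TPM in the NRP2-high group, against 7.30%, 4.92% and 4.78% in the NRP2-low group. The share was therefore highest in S38, where the mRNAs were lowest, and lowest in S37, where they were highest. How the library preparation treated rRNA is not given in the sources used here.

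The tRNAs rest on far fewer reads: 402, 1072 and 1176 in S38, S39 and S40 (NRP2-high), against 745, 689 and 1577 in S35, S36 and S37 (NRP2-low), over 20 genes. Their genes are 59 to 75 bases long, and a TPM of a tRNA gene here counts whatever reads, from mature tRNA or from longer precursors, were assigned to it. MT-TP, the gene of the proline tRNA, had the most reads, 1551 over the 6 libraries, and was at 374, 998 and 646 TPM in the NRP2-high group, against 356, 592 and 910 TPM in the NRP2-low group (log2 fold change 0.11, SE 0.41). MT-TL1, a leucine tRNA gene that follows MT-RNR2, was at 273, 228 and 586 TPM in the NRP2-high group, against 391, 290 and 827 TPM in the NRP2-low group (-0.45, SE 0.44). MT-TP was highest in S39, whereas MT-TL1 was lowest there. Without S37 the log2 fold change of MT-TL1 was -0.02 and that of MT-TP 0.44.

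The other abundant minus-strand genes were also highest in S39 among the NRP2-high libraries. MT-TQ, for glutamine, was at 99.1, 528 and 339 TPM in S38, S39 and S40 (NRP2-high), against 160, 231 and 588 TPM in S35, S36 and S37 (NRP2-low) (log2 fold change -0.10, SE 0.64). MT-TS1, for serine, was at 76.9, 380 and 231 TPM in the NRP2-high group, against 94.5, 117 and 351 TPM in the NRP2-low group (0.27, SE 0.63), and MT-TE, for glutamate, at 103, 322 and 233 TPM in the NRP2-high group, against 143, 204 and 551 TPM in the NRP2-low group (-0.35, SE 0.53). On the plus strand, MT-TT, for threonine, was at 66.5, 88.2 and 301 TPM in the NRP2-high group, against 122, 119 and 326 TPM in the NRP2-low group (-0.47, SE 0.57). S40 and S37 were high for it, and S39 was not. The 8 minus-strand genes thus held 64.7%, 84.8% and 58.2% of the tRNA TPM in the NRP2-high group, against 58.1%, 70.6% and 64.9% in the NRP2-low group, with S39 and S36 the highest of their groups. Whether the reads were counted by strand is not given in the sources used here.

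Of the 20 tRNA genes, 10 had at least 50 reads over the 6 libraries and 10 had fewer, and 9 were at 0 reads in at least 1 library. The 4 others with at least 50 reads were MT-TY (119 reads), MT-TV (104), MT-TA (102) and MT-TD (71), the tRNA genes of tyrosine, valine, alanine and aspartate. MT-TW, MT-TM, MT-TI, MT-TN, MT-TF, MT-TK, MT-TR, MT-TG, MT-TC and MT-TS2 had 39, 32, 24, 18, 17, 14, 13, 9, 5 and 2 reads, in that order. Log2 fold changes of the 19 tested tRNA genes ran from -1.72 (MT-TM) to 1.53 (MT-TW), with 7 above 0 and 12 below, and a median of -0.14; without S37 15 lay above 0 and the median was 0.44, and without S38 14 lay above 0 and the median was 0.60. MT-TM was at 0, 0 and 17 reads in the NRP2-high group, against 2, 6 and 7 reads in the NRP2-low group, and MT-TW at 3, 8 and 15 reads in the NRP2-high group, against 0, 6 and 7 reads in the NRP2-low group. The values of these genes depend on single libraries: MT-TM was at -3.51 without S40 and at -0.82 without S38 or S39, and MT-TW at 0.14 without S35 and 2.29 without S37. With a pseudocount of 0.1 the 19 genes ran from -3.80 to 3.51. MT-TS2, with 2 reads in S39 and 0 reads in all other libraries, did not pass the filter.

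MT-TC, the cysteine tRNA gene (5761 to 5826, minus strand), was the 1 member of 35 whose groups did not overlap, against 12.0% of all tested genes. It was at 2.77, 2.76 and 4.93 TPM in S38, S39 and S40 (NRP2-high), against 0, 0 and 2.72 TPM in S35, S36 and S37 (NRP2-low). These values are 1, 1 and 2 reads in the NRP2-high group, against 0, 0 and 1 read in the NRP2-low group, so S39 and S37 had 1 read each and differ only through the scaling of TPM. The log2 fold change, which depends on the pseudocount at such levels, was 1.5 (SE 0.51, limma adjusted p = 0.484), and without S37 it was 2.13 (limma adjusted p = 0.0506). At 5 reads in all, a difference is not detectable at this depth.

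The nuclear copies of mitochondrial genes followed the mitochondrial share. The table holds 39 such pseudogenes, 17 of them tested. Of these 17, 15 were highest in S37, against 8.56% of all tested genes. Over all 39 copies, 21 were highest there. Because reads can match both a copy and its gene, these counts are not independent of the mitochondrial share. MTATP6P1 was at 990, 1063 and 1384 TPM in S38, S39 and S40 (NRP2-high), against 1202, 1083 and 2328 TPM in S35, S36 and S37 (NRP2-low), which is 5.47% to 7.22% of MT-ATP6 in the NRP2-high group, against 6.26% to 7.08% in the NRP2-low group. MTCO1P12, MTCO2P12 and MTCO3P12, which lie beside it on chromosome 1 and have 98.7%, 98.2% and 98.2% of their bases in common with MT-CO1, MT-CO2 and MT-CO3, were at 0.482% to 1.06% of those genes. All 39 copies together held 1.36%, 1.02% and 1.15% of the TPM of the mitochondrial genes in the NRP2-high group, against 1.29%, 1.14% and 1.195% in the NRP2-low group. How reads that match both a mitochondrial gene and its copy were divided is not given in the sources used here, so the levels of both are uncertain. None of the 17 tested copies passed the threshold in limma, 2 had an unadjusted p under 0.05 (against 0.835% and 7.0% of all tested genes), and all 17 lay below 0 (median log2 fold change -0.40, and -0.09 without S37, where 4 lay above 0).

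The nuclear genes that transcribe the mitochondrial genome gave no call either. Of 15 genes of mitochondrial transcription and DNA maintenance, 15 were tested and 0 passed the threshold (0 at an unadjusted p under 0.05). Their median log2 fold change was -0.08. Over all tested genes 0.835% passed and 7.0% were at an unadjusted p under 0.05 in limma. A count of 0 in a list of this size is near these shares. TFAM, which packages mitochondrial DNA and starts its transcription, was at 147 ± 6.11 TPM in the NRP2-high group, against 171 ± 11.1 TPM in the NRP2-low group (SD, n = 3 each; log2 fold change -0.21, SE 0.14, limma adjusted p = 0.874). POLRMT, the mitochondrial RNA polymerase, was at 18.6 ± 1.43 TPM in the NRP2-high group, against 18.8 ± 3.0 TPM in the NRP2-low group, and its partner TFB2M at 60.2 ± 8.89 TPM in the NRP2-high group, against 67.4 ± 8.10 TPM in the NRP2-low group (SD, n = 3 each). In S37 TFAM was at 161 TPM and POLRMT at 15.3 TPM, each the lowest of the NRP2-low libraries. TFB2M was at 74.8 TPM there, the highest of all libraries. The larger mitochondrial share of S37 lowers the TPM of its nuclear genes, and these ranks are not corrected for it.

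Of 26 genes of mitochondrial RNA processing and stability 0 passed, with 1 at an unadjusted p under 0.05 and a median of 0.01. Over all tested genes 0.835% passed and 7.0% were at an unadjusted p under 0.05 in limma. LRPPRC, which stabilises mitochondrial mRNAs, was at 104 ± 4.44 TPM in the NRP2-high group, against 94.9 ± 24.01 TPM in the NRP2-low group (SD, n = 3 each; log2 fold change 0.17, SE 0.21). S37 was its lowest library at 67.4 TPM, again not corrected for the mitochondrial share, and without S37 its log2 fold change was -0.06. HSD17B10, a subunit of the enzyme that cuts the 5′ ends of mitochondrial tRNAs, was at 217 ± 48.4 TPM in the NRP2-high group, against 222 ± 31.7 TPM in the NRP2-low group (SD, n = 3 each). TRMT10C, another subunit of that enzyme, was at 96.4 ± 2.70 TPM in the NRP2-high group, against 104 ± 12.6 TPM in the NRP2-low group. SLIRP, the partner of LRPPRC, was the member under an unadjusted p of 0.05 and is named after its values were seen, at 39.4 ± 4.97 TPM in the NRP2-high group, against 54.0 ± 10.7 TPM in the NRP2-low group (log2 fold change -0.44, SE 0.19, limma adjusted p = 0.709). Among 6 regulators of mitochondrial biogenesis 5 were tested and 0 passed (0 at an unadjusted p under 0.05; median 0.10). The coactivator gene PPARGC1A was below the filter, at 0.0330 ± 0.0176 TPM in the NRP2-high group, against 0.0841 ± 0.0630 TPM in the NRP2-low group, and PPRC1, of the same family, was at 69.8 ± 18.7 TPM in the NRP2-high group, against 72.7 ± 3.75 TPM in the NRP2-low group (SD, n = 3 each).

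The genes that work with the mitochondrial tRNAs and rRNAs gave the same result. Of 17 mitochondrial tRNA synthetase genes 0 passed (0 at an unadjusted p under 0.05; median 0.14), and the most abundant, IARS2, for isoleucine, was at 222 ± 24.1 TPM in the NRP2-high group, against 180 ± 29.2 TPM in the NRP2-low group (SD, n = 3 each; log2 fold change 0.31, SE 0.18, limma adjusted p = 0.864). Of 75 mitochondrial ribosomal protein genes 73 were tested and 0 passed (median -0.06). The 1 gene at an unadjusted p under 0.05 was MRPS6, named after its values were seen, at 42.9 ± 8.75 TPM in the NRP2-high group, against 25.5 ± 4.99 TPM in the NRP2-low group (log2 fold change 0.73, SE 0.22, limma adjusted p = 0.377). The most abundant, MRPL15, was at 340 ± 57.4 TPM in the NRP2-high group, against 396 ± 23.9 TPM in the NRP2-low group (SD, n = 3 each). The counts of these lists stand beside 0.835% of all tested genes past the threshold and 7.0% at an unadjusted p under 0.05 in limma. The medians of these lists stand beside a median of 0.10 over all tested genes with all 6 libraries. That of all tested genes was itself -0.0039 without S37. The list medians turned below 0 without S37 for RNA processing (-0.07), for the biogenesis regulators (-0.01) and for the synthetases (-0.03). That of RNA processing was also below 0 without S40 (-0.10), with libraries scaled by their median ratio (-0.09) or to the summed nuclear TPM (-0.08), and with voom on the recovered reads (-0.09). That of the biogenesis regulators was -0.00 under the median-ratio scaling. Over all tested genes the median was 0.11 without S40 and 0.0029 under the median-ratio scaling. It was 0.017 with libraries scaled to the summed nuclear TPM and 0.0088 with voom.

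**Figure D5:**
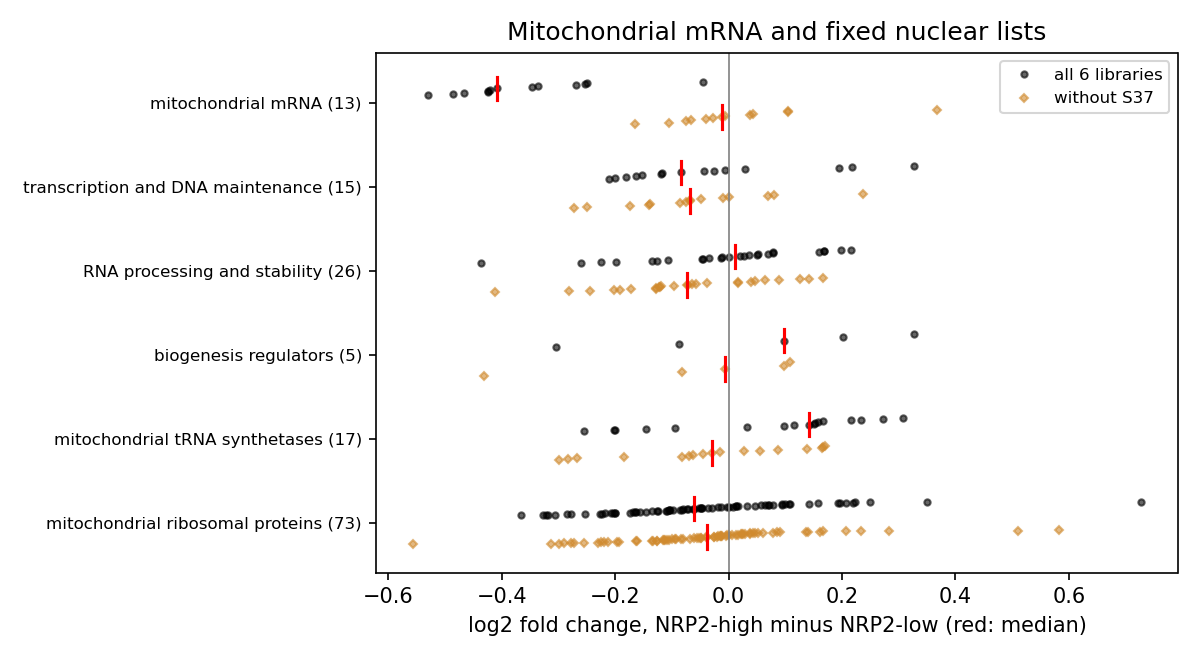
Each point is the log2 fold change, NRP2-high minus NRP2-low, of 1 tested gene, for the 13 mitochondrial mRNAs and the fixed nuclear lists, with all 6 libraries (black) and without S37 (orange); red bars are medians. Leaving out S37 moves the mRNA median from -0.41 to -0.01. The medians of the nuclear lists lie between -0.08 and 0.14 with all libraries and between -0.07 and -0.01 without S37. Over all tested genes the median is 0.10 with all libraries and -0.0039 without S37.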

How the data were processed

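RNA-seq of 6 PC3 libraries was analysed from the deposited table of TPM, the authors' reads per gene scaled by gene length to a fixed total. The submitters' processing notes name featureCounts 1.5.2, DESeq2 1.20.0 and hg38 (GRCh38.p12) without roles; aligner, library kit, strand setting and handling of reads with several matches were not given in the sources used here. Columns were matched to NRP2-high or NRP2-low by name. Whole reads were recovered from the low TPM steps (100% of values whole within 0.001).

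limma 3.58.1 (R 4.3.3) was fitted to log2(TPM + 1) with group only and a variance trend, for the 15214 genes at 1 TPM or more in at least 3 libraries, with two-sided p-values and Benjamini-Hochberg adjustment over all of them (threshold 0.05). Fold changes on this scale understate the change of low genes. Sums, shares and ratios over members were described with no test. Alternatives were another pseudocount, no filter, no trend, other scalings, voom on the recovered reads and leaving out each library. Sequences were taken from GENCODE release 29 transcripts and copies aligned with Biopython 1.88. The script was tested on simulated data.

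Any mitochondrial gene could be named, nuclear copies from a mean of 10 TPM, and from each nuclear list the 2 most abundant genes at most, with TFAM, POLRMT, TFB2M, LRPPRC and PPARGC1A always; exceptions are marked. Members and lists were chosen with earlier results of these data known. S37 was set apart for its mitochondrial share, so the contrasts without S37 rest on a choice made on the values compared. Some cell line markers are not reported here.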

Additional observations from a re-analysis of the deposited data

How the results depend on the processing

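No mitochondrial gene and no gene of the nuclear lists passed the threshold under any alternative. Over the whole table the 127 genes past it became 74 without the filter, 200 with voom on recovered reads, 43 to 97 when 1 library was left out, and 70 with libraries scaled to the summed nuclear TPM and without S37, an alternative chosen after seeing the data; the cause was not tested. The difference in mitochondrial share, -4.84 percentage points (NRP2-high minus NRP2-low), ran from -7.75 to 0.59 when 1 library was left out. Of 312 single-gene alternatives over 24 genes 280 kept their direction, and the 32 that did not all left out a library, S37 in 21 of them. Leaving out 1 library gave log2 fold changes of -0.43 to 0.043 for MT-ATP6, -0.54 to -0.01 for MT-ATP8, -0.59 to 0.037 for MT-CO1, -0.48 to 0.11 for MT-CO3, -0.49 to 0.11 for MT-ND3, -0.34 to 0.37 for MT-ND6, -0.26 to 0.15 for MT-RNR1, -0.30 to 0.26 for MT-RNR2, -0.75 to 0.22 for MT-TE, -0.24 to 0.48 for MT-TP, -0.60 to 0.60 for MT-TQ, -0.23 to 0.91 for MT-TS1 and -1.12 to 0.0036 for MT-TT. Scaled to the summed nuclear TPM and without S37, the values in the other direction were 0.16 for MT-RNR1, 0.27 for MT-RNR2, 0.048 for MT-CO1, 0.0042 for MT-ATP8, 0.054 for MT-ATP6, 0.12 for both MT-CO3 and MT-ND3, 0.38 for MT-ND6, 0.45 for MT-TQ, 0.23 for MT-TE and 0.014 for MT-TT. No paired analysis was possible because the columns carry no replicate number. Depth limits the tRNAs most, since 10 of 20 had under 50 reads in all, and 3 libraries per group limit every comparison.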
